A study of Mus musculus with 6 samples.

Results

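Imprinted genes were followed on bead arrays of thymic lymphocytes, from mice labelled as KAP1 knockouts of the T lineage and from control littermates. The genes were taken from a list of 45 known mouse imprinted genes, matched by symbol to the annotation of an Illumina mouse bead array. Of these, 40 genes had a probe, with 98 probes between them among the 45281 on the array. The genes H19, Airn, Snrpn, Mirg and Zrsr1 had no matched probe and were not analysed here. Detection means a detection p-value under 0.01, and probes that reached it on at least 3 of the 6 arrays were tested. This left 19 probes of 13 imprinted genes, among 14651 tested probes that name 8200 genes.

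The 3 knockout animals carried CD4-Cre and Kap1flox, and the 3 controls were wt/Kap1flox littermates. All mice were 8 to 12 weeks old and of C57/bl6-129sv strain, and each array stood for 1 mouse, labelled KO (replicates 1 to 3) or wt (replicates 4 to 6). CD4-Cre acts in thymocytes from the stage at which they carry both coreceptors, so cells of earlier stages and other lineages keep the gene. Lymphocytes were freed mechanically from the thymus with no sort named, and the labels do not say how many floxed copies the controls carry. The comparison asks how loss of KAP1 alters transcripts of T cell progenitors. Signals below are log2 values after background correction and quantile normalization, with 16 added before the logarithm, which understates the differences of dim probes.

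An imprinted gene is expressed from 1 parental allele, according to methylation laid down in the egg or sperm at imprinting control regions. KAP1, encoded by Trim28, is brought to the methylated copy of these regions by zinc finger proteins such as ZFP57 and ZFP445 and helps to keep the methylation through the divisions of the early embryo. The arrays read the sum of both alleles, so a change of the expressed allele and a change of the silent one cannot be told apart. In RNA of such mixed cells, fewer cells of a type and less RNA per cell cannot be told apart either.

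The hexamer TGCCGC, which mouse ZFP57 binds when its CG is methylated, was searched on both strands in RefSeq promoter windows of the assembly GRCm38.p6, from 250 bases before to 50 after each start. Windows were at hand for 38 of the 45 imprinted genes, and 14 of their 56 windows (25%) held it, against 3813 of 32851 windows of all genes (11.6%). This is a description of letters, not of binding, and KAP1 binding was not measured here. The hexamer holds a CG, and the CG content of the imprinted and all windows was not compared. The windows shown are those of Commd1 and Copg2, the only tested genes with a window that held a match. The tested genes Cdkn1c, Nap1l4 and Impact had no window and were not searched. Also shown are those of the 2 untested genes with most matches, Zdbf2 and Mest. Mest shared its count with Nap1l5 and was taken in alphabetical order. Capitals mark the hexamer or its reverse complement GCGGCA, and each run reads 5′ to 3′ on the gene's strand. They lie at chr11:22982235-22982534 (minus strand) for Commd1, chr6:30896745-30897044 (minus strand) for Copg2, chr1:63200108-63200407 (plus strand) for Zdbf2 and chr6:30737800-30738099 (plus strand) for Mest.
Commd1: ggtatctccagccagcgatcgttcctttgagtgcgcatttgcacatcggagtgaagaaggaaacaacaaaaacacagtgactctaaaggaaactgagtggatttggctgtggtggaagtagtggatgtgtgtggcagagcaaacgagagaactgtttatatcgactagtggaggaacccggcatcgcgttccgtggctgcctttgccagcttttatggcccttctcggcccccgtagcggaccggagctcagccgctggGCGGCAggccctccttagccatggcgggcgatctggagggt
Copg2: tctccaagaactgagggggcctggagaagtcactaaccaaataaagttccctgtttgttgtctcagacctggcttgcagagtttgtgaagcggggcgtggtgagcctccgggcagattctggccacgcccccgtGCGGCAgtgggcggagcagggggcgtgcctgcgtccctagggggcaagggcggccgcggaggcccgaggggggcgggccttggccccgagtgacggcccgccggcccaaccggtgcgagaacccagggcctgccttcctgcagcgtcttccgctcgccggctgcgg
Zdbf2: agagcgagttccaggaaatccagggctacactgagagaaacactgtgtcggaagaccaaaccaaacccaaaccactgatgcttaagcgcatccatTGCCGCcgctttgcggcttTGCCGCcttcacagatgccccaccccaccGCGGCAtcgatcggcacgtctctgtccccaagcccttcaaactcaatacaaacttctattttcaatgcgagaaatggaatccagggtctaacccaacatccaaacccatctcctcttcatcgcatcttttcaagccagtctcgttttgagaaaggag
Mest: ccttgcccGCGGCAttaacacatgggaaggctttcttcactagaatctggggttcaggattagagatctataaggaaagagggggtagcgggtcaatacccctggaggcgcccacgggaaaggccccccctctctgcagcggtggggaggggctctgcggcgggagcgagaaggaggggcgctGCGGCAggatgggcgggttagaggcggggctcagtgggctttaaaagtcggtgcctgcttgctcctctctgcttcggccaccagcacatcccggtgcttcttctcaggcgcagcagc

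Trim28 itself had log2 signals of 10.83, 11.01 and 10.23 on the knockout arrays, against 12.39, 12.25 and 12.59 on the control arrays. The groups did not overlap, with a difference of -1.72 ± 0.26 (SE, n = 3 per group; limma adjusted p = 0.23 over all tested probes), so the targeted transcript was lower on every knockout array without passing the threshold. The place of its probe relative to the deleted part was not analysed here, so the probe shows a lower signal under the knockout label, not the deletion itself. Each array detected 13973 to 15182 probes, and its mean signal before normalization was 340.1 to 678.5. Of the thymocyte marker genes with a probe, 11 of 12 were tested, and their summed log2 level was 17.06 to 17.32 in the knockout and 17.14 to 17.19 in the controls. Among markers of other cells, 4 of 4 B cell, 6 of 6 macrophage, 10 of 11 erythroid, 1 of 2 endothelial, 1 of 1 thymic epithelial and 0 of 6 neutrophil probes were higher in the knockout, 0 of them past the threshold. The summed level of these lists overlapped between the groups for all but the B cell markers, which had 10.15 to 10.95 in the knockout, against 9.89 to 10.08 in the controls. Dendritic cell and MHC class II markers and cell cycle markers, with levels given below, did not overlap between the groups either. At an unadjusted p under 0.05 in limma, 7 of 9 dendritic and MHC class II probes were higher in the knockout, against 2.25% of all tested probes. Of the cell cycle probes 6 of 12 were lower at that level, against 1.29% of all tested probes. A second header line of the deposited table gives each array a number, in which knockout replicate 3 and control replicate 6 stand in a series of their own. The meaning of these numbers is stated nowhere in the labels or headers.

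Of the 40 imprinted genes with a probe, 23 (57.5%) were detected on 0 of the 6 arrays, 4 on 1 or 2 arrays at most, and 13 (32.5%) had a tested probe. Over all 19057 named genes the shares were 50.7% detected on 0 arrays and 43.0% with a tested probe. The 79 untested probes gave 12 detections among 474 values, and 71 of them had none. The number of imprinted genes detected was 14 on each of the 3 knockout arrays, and 14, 13 and 12 on the control arrays. By probe it was 21, 20 and 20 in the knockout, against 21, 20 and 19 in the controls. Over all probes, 31.9%, 32.5% and 33.5% were detected on the knockout arrays, against 30.9%, 32.3% and 31.8% on the control arrays. The probe ILMN_1260450 of Ddc was the 1 imprinted probe detected on all 3 knockout arrays and 0 control arrays, and 0 imprinted probes showed the opposite pattern. Among all 45281 probes the shares were 0.135% and 0.0265%.

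**Figure D1:**
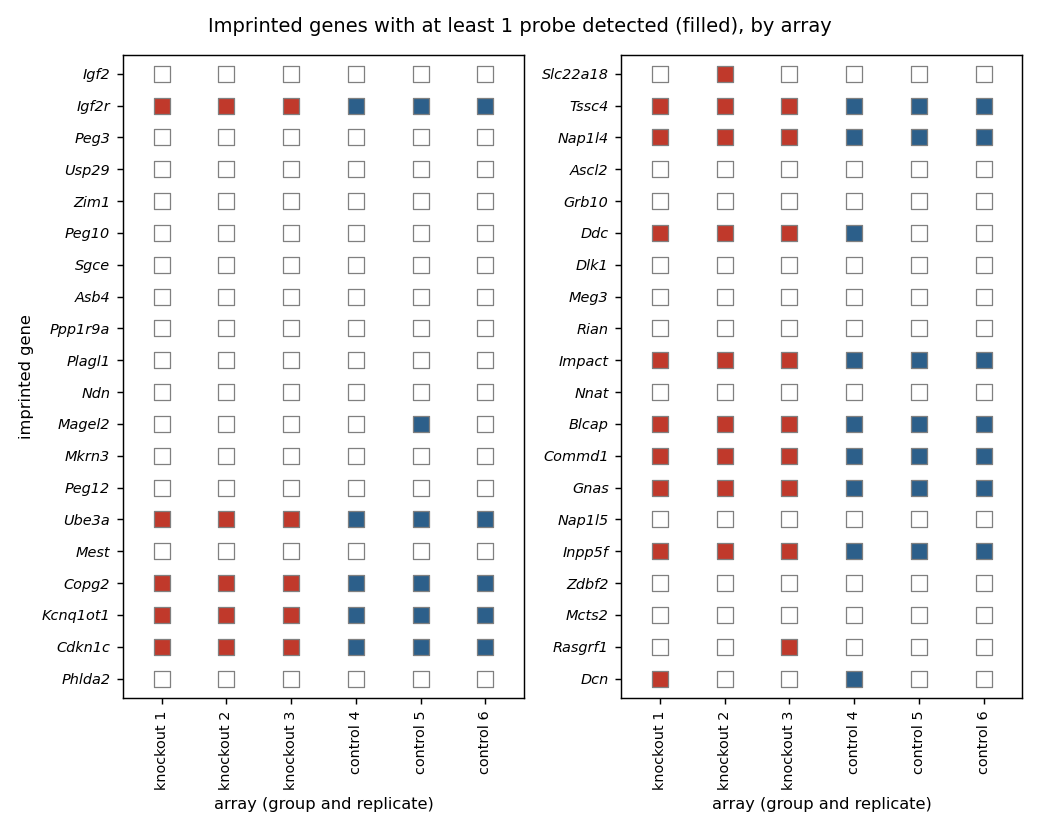
Detection of the 40 imprinted genes with a probe, on 3 knockout arrays (red) and 3 control arrays (blue). A filled square marks a gene with at least 1 probe at a detection p under 0.01, and 14 genes were filled on each knockout array, against 14, 13 and 12 on the control arrays. Over all probes, 31.9% to 33.5% were detected on the knockout arrays and 30.9% to 32.3% on the control arrays.

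The undetected genes included whole clusters. Igf2, the fetal growth factor gene of the H19-Igf2 cluster, had its only probe at a lowest detection p of 0.158. The Peg3 cluster had 8 probes for the zinc finger genes Peg3 and Zim1 and the protease gene Usp29, and none was detected on any array. The 7 probes of the Peg10-Sgce cluster, for Peg10, a gene derived from a retrotransposon, the sarcoglycan gene Sgce, Asb4 and Ppp1r9a, and the 3 probes of Plagl1, a zinc finger transcription factor gene, were likewise below the detection limit on every array. In the Dlk1-Meg3 cluster the membrane protein gene Dlk1 and the non-coding RNA genes Meg3 and Rian were detected nowhere. The lowest detection p was 0.015 over the 2 probes of Dlk1 and 0.0256 over the 3 probes of Meg3, beside 0.0267 for the 1 probe of Ndn. The other genes detected on 0 arrays were Ndn, Mkrn3, Peg12, Mest, Phlda2, Ascl2, Grb10, Nnat, Nap1l5, Zdbf2 and Mcts2. Magel2, Slc22a18, Rasgrf1 and Dcn, which encodes the matrix proteoglycan decorin, reached detection on 1 or 2 arrays only, and Dcn did so on 1 knockout and 1 control array.

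Most of the tested genes were labelled here as imprinted in some tissues only. Genes labelled without such a limit had a tested probe in 4 of 28 cases, namely Igf2r, Kcnq1ot1, Cdkn1c and Impact. Genes labelled as imprinted in some tissues only had one in 9 of 12 cases, and over all named genes with a probe the share was 43.0%. The classes differed in probes per gene. By probe, 6 of 55 were tested in the first class and 13 of 43 in the second, against 14651 of all 45281 probes. The labels are coarse, and Phlda2 and Ascl2, both best known from the placenta, fell into different classes. By parental allele, 4 of the 21 paternally expressed genes with a probe were tested and 9 of the 19 maternally expressed ones. The allele and tissue range were assigned from general knowledge of mouse imprinting, and these shares are descriptions of the list.

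None of the 19 tested imprinted probes passed the threshold in limma, and 1, of Ddc and higher in the knockout, had an unadjusted p under 0.05. That Ddc probe was tested only through its detection on the 3 knockout arrays, so its direction was partly set by the filter and its counts here are descriptions. Over all 14651 tested probes 4 passed, 0.0273% of them, and 518 had an unadjusted p under 0.05, which is 3.54%, made up of 2.25% higher and 1.29% lower in the knockout. Of the imprinted probes 9 were higher and 10 lower in the knockout, with a median log2 difference of -0.01, beside a median of -0.01 and a share of 48.9% higher among all tested probes. The 95% interval lay within a 2-fold difference either way for 12 of the 19 probes, and the interval's half-width was between 0.45 and 1.27 in log2 units. For the other 7 probes a 2-fold difference in at least 1 direction was within the interval. The groups did not overlap for 2 imprinted probes, of Ddc and Cdkn1c, which is 2 of 19 against 7.64% of all tested probes. By direction, 4.48% of all tested probes had no overlap and were higher in the knockout, as Ddc was, and 3.16% had no overlap and were lower, as Cdkn1c was.

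**Figure D2:**
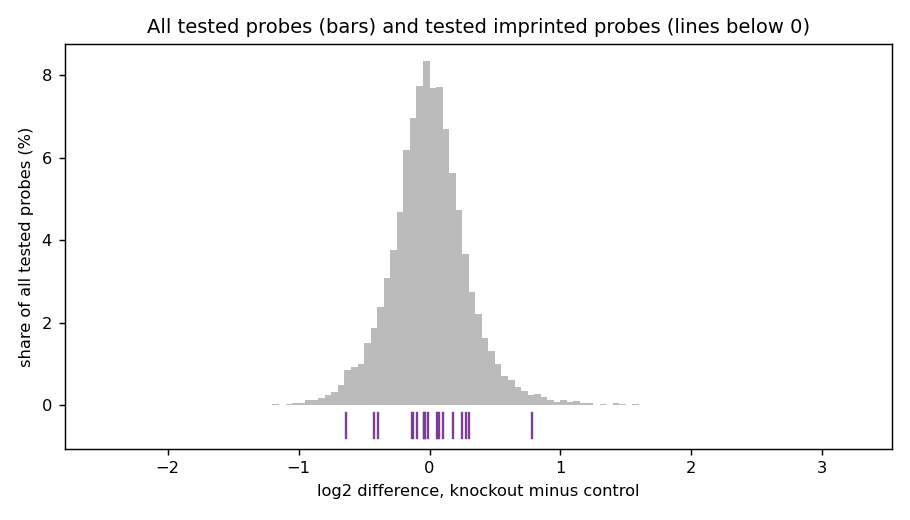
Log2 difference, knockout minus control, of all 14651 tested probes (grey bars, share in percent per bin of the axis) and of the 19 tested imprinted probes (purple lines under the bars). The imprinted probes lie between -0.64 and 0.78, on both sides of 0 and within the spread of all probes.

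**Figure D3:**
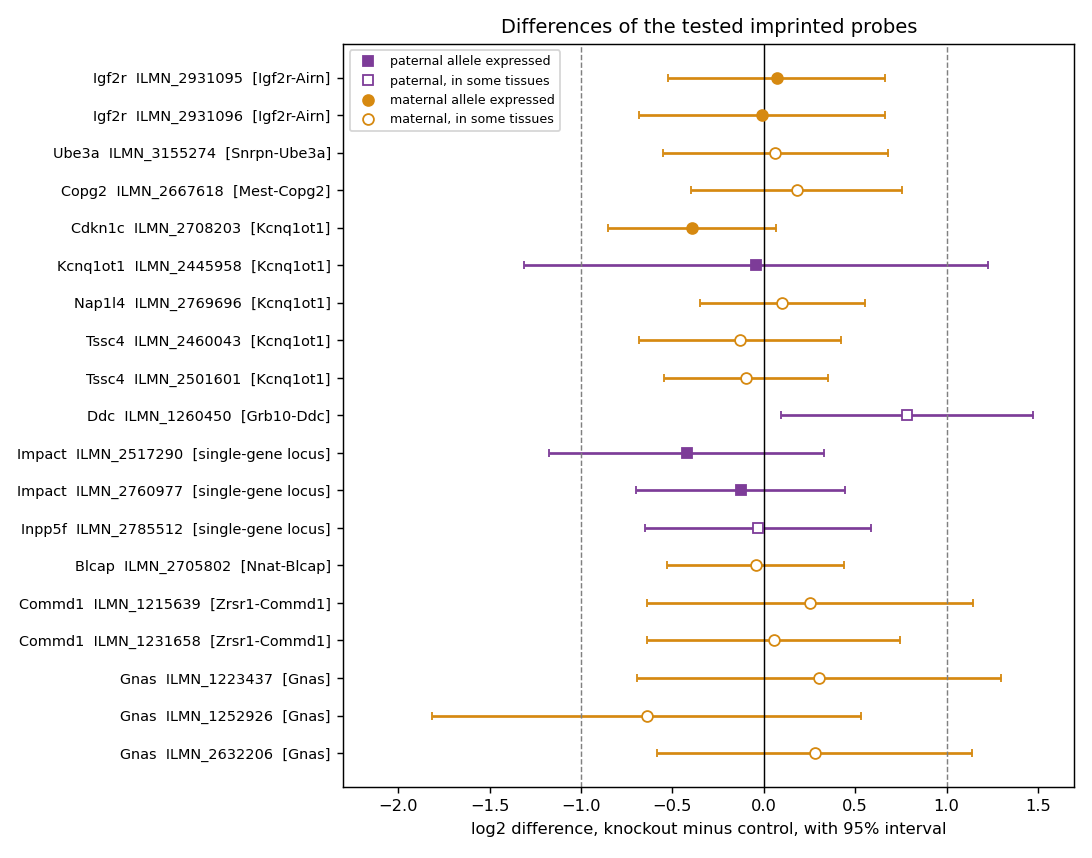
Log2 difference, knockout minus control, of each tested imprinted probe with its 95% interval from limma (n = 3 arrays per group), with the cluster in brackets. Squares are paternally and circles maternally expressed genes, open where imprinting was labelled as in some tissues only, and dashed lines mark a 2-fold difference. Every interval but that of Ddc includes 0.

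Ddc, which encodes the decarboxylase that makes dopamine and serotonin and is paternally expressed in some tissues, had the largest difference among the tested imprinted probes. Probe ILMN_1260450 had log2 signals of 5.83, 6.73 and 5.80 on knockout arrays 1 to 3, against 5.54, 5.01 and 5.46 on control arrays 4 to 6. All 3 knockout arrays lay above all 3 control arrays, and knockout replicate 2 stood apart from the other knockout arrays. The probe was detected on 3 knockout arrays and on 0 control arrays, a pattern shared by 61 of all 45281 probes. Its signal in the controls is thus a bound. With control values below the lowest detected signal of their array raised to it, the knockout mean was 1.53-fold higher. That figure carries no sampling error and is not a lower limit of the difference. The fitted difference was 0.78 ± 0.30 (SE, 95% interval 0.09 to 1.48; limma adjusted p = 0.998), and it did not pass. It was 0.48 without knockout replicate 2.

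The other Ddc probes did not show this difference. Probe ILMN_2628647 had signals of 5.01, 5.52 and 5.08 in the knockout, against 5.61, 4.63 and 5.10 in the controls, and was detected on 1 array of each group. The third Ddc probe was detected on 0 arrays. Grb10, the growth factor receptor adaptor gene beside Ddc, was detected on 0 arrays by its 3 probes. Markers of dendritic cells and MHC class II were also higher in the knockout. Of 9 such genes 5 were tested, with 9 of 9 probes higher in the knockout and a median difference of 0.90, and 0 passed the threshold. Their summed log2 level was 13.42, 14.32 and 13.59 on the knockout arrays, against 12.63 to 13.05 on the control arrays, highest on knockout replicate 2 as for Ddc. Macrophage and B cell markers were also highest on that array, at 11.21 and 10.95. The dendritic cell markers Itgax, Flt3, Xcr1 and Zbtb46 had no tested probe, and the part of any of these cells in the Ddc value was not tested.

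As listed here, the Kcnq1ot1 cluster held most tested genes, 4 of 7, with 5 probes, of which 4 were lower and 1 higher in the knockout. Tspan32 of the same region is given below with the further imprinted genes and was higher in the knockout. The paternally expressed non-coding RNA Kcnq1ot1 silences neighbouring genes on its own chromosome. Among its targets, Cdkn1c encodes p57, an inhibitor of cyclin-dependent kinases expressed from the maternal allele. Cdkn1c had log2 signals of 7.12, 7.03 and 6.88 on the knockout arrays, against 7.51, 7.23 and 7.47 on the control arrays. Every knockout array lay below every control array, with little spread in either group. The difference was -0.39 ± 0.20 (SE, 95% interval -0.85 to 0.07; limma adjusted p = 0.998), which did not pass the threshold, and it was -0.24 without background correction and -0.48 to -0.33 when any 1 array was left out.

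Kcnq1ot1 itself varied more between animals than between genotypes. Its tested probe ILMN_2445958 had signals of 6.89, 5.70 and 8.10 in the knockout, against 6.49, 6.76 and 7.57 in the controls. Knockout replicate 2 was the lowest array and knockout replicate 3 the highest, so the knockout range enclosed all 3 controls. The pooled SD within groups was 0.94, against a median of 0.32 over all tested probes, and the difference of -0.04 ± 0.56 (SE, 95% interval -1.31 to 1.23) leaves a 2-fold difference in either direction within the interval. Arrays 3 and 6, which share a header number series, had the highest signal of their group. The second Kcnq1ot1 probe was detected on 0 arrays.

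Nap1l4, a nucleosome assembly protein gene at the edge of this cluster, was among the least variable. It had signals of 12.95, 12.78 and 13.03 in the knockout, against 12.86, 12.70 and 12.90 in the controls, a difference of 0.10 ± 0.20 (SE, 95% interval -0.35 to 0.55). Tssc4, which in human cells encodes a factor for the assembly of splicing complexes, had differences of -0.13 ± 0.24 and -0.10 ± 0.20 for its 2 probes. Phlda2 and Ascl2, maternally expressed and best known from the placenta, were detected on 0 arrays, and Slc22a18 on 1 knockout array.

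Markers of dividing cells were also lower in the knockout. The knockout arrays had the same order as for Cdkn1c, while control replicate 5 was highest for the markers and lowest for Cdkn1c. The 9 tested cell cycle genes had 12 of 12 probes lower in the knockout, with a median difference of -0.63 and 0 past the threshold, and their summed log2 level was 14.41, 14.35 and 14.03 in the knockout, against 14.84, 14.96 and 14.75 in the controls. Fbln1, the only tested gene of 8 fibroblast markers, had 7.14, 6.50 and 6.08 in the knockout, against 7.54, 7.34 and 7.11 in the controls. The groups overlapped for Fbln1, and the collagen genes Col1a1, Col1a2 and Col3a1 had no tested probe. All 6 neutrophil probes were lower in the knockout as well, with summed levels that overlapped between the groups. The part of any of these cell populations in the Cdkn1c value was not tested. Of the related inhibitor genes, Cdkn1b had a difference of 0.33 ± 0.41 (SE).

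Igf2r, which encodes the receptor that carries Igf2 and lysosomal enzymes to the lysosome and is expressed from the maternal allele, was measured by 2 probes that gave the same picture. Probe ILMN_2931095 had signals of 9.22, 8.39 and 8.70 in the knockout, against 8.90, 8.53 and 8.67 in the controls. Probe ILMN_2931096 had 9.21, 8.23 and 8.39 in the knockout, against 8.89, 8.39 and 8.58 in the controls. In both, knockout replicate 1 was highest and knockout replicate 2 lowest, and the groups overlapped. The differences were 0.07 ± 0.26 and -0.01 ± 0.30 (SE), with 95% intervals of -0.52 to 0.66 and -0.69 to 0.67, so a 2-fold difference lay outside both intervals.

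Impact, a paternally expressed gene whose protein restrains the stress kinase GCN2, was the only paternally expressed gene of this list with 2 tested probes. Probe ILMN_2760977 had 9.29, 8.54 and 9.10 in the knockout, against 9.17, 8.93 and 9.21 in the controls, a difference of -0.13 ± 0.25 (SE, 95% interval -0.70 to 0.45). Probe ILMN_2517290 had 5.93, 4.79 and 5.89 in the knockout, against 6.14, 5.69 and 6.04 in the controls, with -0.42 ± 0.33. Knockout replicate 2 was the lowest array for both probes, and ILMN_2517290 was not detected on it. Without that array the differences were 0.094 for ILMN_2760977 and -0.05 for ILMN_2517290.

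The 3 tested probes of Gnas, which encodes the stimulatory G protein alpha subunit and has several promoters with different imprints, did not go one way. Probe ILMN_2632206 had 9.55, 10.59 and 10.09 in the knockout, against 9.08, 10.34 and 9.97 in the controls, a difference of 0.28 ± 0.38 (SE). Probe ILMN_1223437 had 7.39, 8.70 and 7.63 in the knockout, against 6.80, 8.15 and 7.87 in the controls, a difference of 0.30 ± 0.44. Probe ILMN_1252926 had 5.19 to 6.92 in the knockout (knockout replicate 3 highest), against 5.81, 6.42 and 7.40 in the controls, a difference of -0.64 ± 0.51, and it was detected on 2 knockout and 3 control arrays. The last difference was -0.21 without control replicate 6, -0.29 without knockout replicate 1, -1.01 without control replicate 4, -1.15 without knockout replicate 3 and -0.27 without background correction. In the 3 pairs of neighbouring header numbers it was -0.62, -0.82 and -0.48, and that of ILMN_2632206 was 0.47, 0.25 and 0.12. In all 3 probes the groups overlapped, and their spread within groups exceeded that of 88.9% to 97.2% of tested probes. For the third probe arrays 3 and 6 were the highest of their groups. The remaining 7 of the 10 Gnas probes were not tested. Which transcript of Gnas each probe reads was not analysed here.

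Ube3a, the ubiquitin ligase gene that is maternally expressed in neurons, had 8.38, 7.90 and 8.87 in the knockout for probe ILMN_3155274, against 8.42, 8.29 and 8.27 in the controls. The knockout arrays enclosed the controls, which lay within 0.15 of each other, and the difference was 0.06 ± 0.27 (SE, 95% interval -0.55 to 0.68). It was -0.21 in the first header number series and 0.60 in the second, which holds 1 array per group. Copg2, a coatomer subunit gene next to Mest, differed by 0.18 ± 0.25, with 7.15, 7.56 and 6.78 in the knockout, against 7.11, 6.80 and 7.05 in the controls.

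Commd1, a COMM domain gene whose intron holds the paternally expressed Zrsr1, had differences of 0.25 ± 0.39 and 0.05 ± 0.30 (SE) for probes ILMN_1215639 and ILMN_1231658. Knockout replicate 2 was highest for both, at 9.49 and 11.39, and without that array the differences were -0.10 and -0.22. Blcap, a membrane protein gene that hosts Nnat, averaged 8.14 ± 0.10 on knockout and 8.19 ± 0.23 on control arrays (SD, n = 3 each). Inpp5f, an inositol phosphatase gene with an internal imprinted promoter in brain, averaged 7.74 ± 0.22 in the knockout and 7.77 ± 0.44 in the controls. Their differences were -0.04 ± 0.21 and -0.03 ± 0.27 (SE), with a 2-fold difference outside both 95% intervals.

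**Figure D4:**
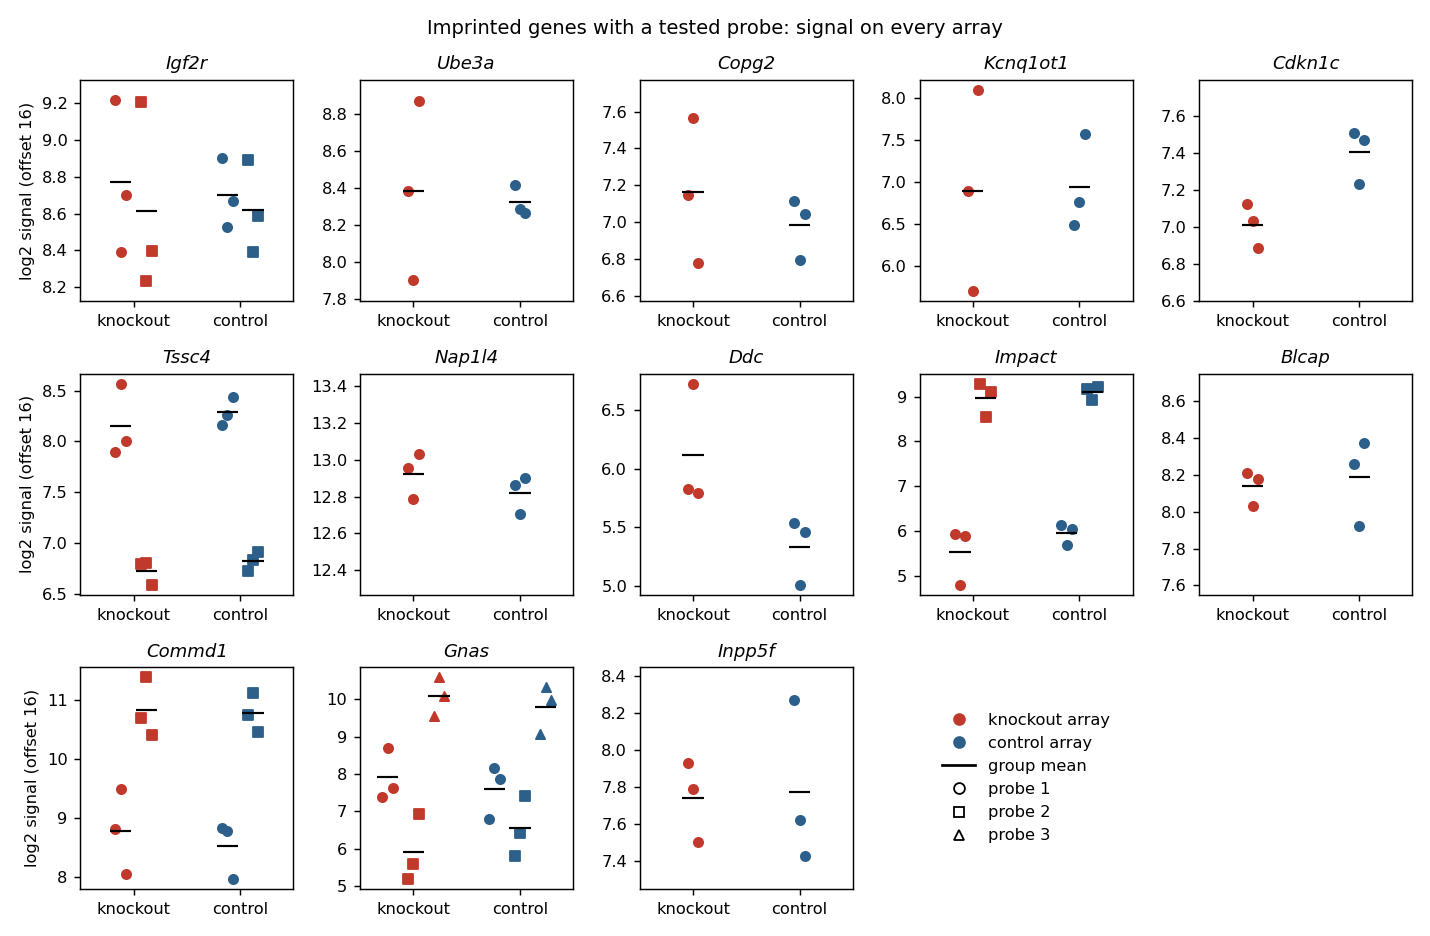
Log2 signal of each tested imprinted probe on the 3 knockout arrays (red, left) and the 3 control arrays (blue, right), with group means as black bars. Symbols number the probes of a gene in the order of their identifiers, and each panel has its own axis. Ddc and Cdkn1c are the genes whose groups do not overlap, Ddc above and Cdkn1c below the controls.

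The Kcnq1ot1 cluster was the only cluster with more than 1 tested gene, so how members of the other clusters move together could not be seen. Paternally expressed genes had 1 of 5 tested probes higher in the knockout, with a median difference of -0.04, and maternally expressed genes 8 of 14, with a median of 0.06, beside a median of -0.01 over all tested probes. Probes of the same gene were counted separately, and the 1 paternal probe was that of Ddc, tested only through the knockout arrays. Leaving out genes labelled as imprinted in some tissues, 0 of 3 paternal and 1 of 3 maternal probes were higher. Knockout replicate 2 was the array with most extreme values, the highest of 6 for 7 of the 19 probes and the lowest for 6. In the knockout the range was 2.40 for Kcnq1ot1 and 0.24 for Nap1l4, so the precision differed from probe to probe.

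As background for these values, a list of factors linked to imprints and DNA methylation was read. It holds de novo methyltransferases as well as factors that maintain imprints. Of 30 genes in this list 27 had a probe and 20 were tested, by 31 probes, 8 higher and 23 lower in the knockout with a median difference of -0.13, 0 past the threshold, and 2 lower at an unadjusted p under 0.05. Over all tested probes 7489 of 14651 were lower, and 1.29% were lower at an unadjusted p under 0.05 in limma. The list includes Trim28 itself, and the cell cycle markers given beside Cdkn1c were lower on the same arrays, whose part in these values was not tested. The 2 probes were of Trim28 and of Uhrf1, which recruits the maintenance methyltransferase, at 12.48 ± 0.53 in the knockout arrays (SD, n = 3), against 13.26 ± 0.08 in the 3 control arrays. Dnmt1, the maintenance methyltransferase itself, averaged 10.69 ± 0.53 in the knockout and 11.26 ± 0.26 in the controls, while Dnmt3b, a de novo methyltransferase, averaged 8.20 ± 0.25 in the knockout and 8.52 ± 0.26 in the controls. Without knockout replicate 3 the difference was -0.50 for Uhrf1 and -0.33 for Dnmt1, and without knockout replicate 1 it was -0.17 for Dnmt3b. Zfp445, one of the zinc finger genes that bring KAP1 to imprinted regions, had 7.31, 7.50 and 7.60 in the knockout, against 7.19, 7.63 and 8.12 in the controls. Zfp57, Cbx1 and Tet2 had no matched probe and were not analysed here. Ctcfl, Tet3, Dnmt3a, Dnmt3l, Dppa3, Ehmt1 and Hells had no tested probe.

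Of 51 further genes with reported imprinting, 45 had a probe and 17 were tested, by 25 probes, 10 higher and 15 lower in the knockout with a median difference of -0.03 and 0 past the threshold. Tspan32, a tetraspanin gene of blood cells in the region of the Kcnq1ot1 cluster, had the smallest unadjusted p. Its signals were 10.54, 10.65 and 10.57 in the knockout, against 10.25, 9.87 and 10.18 in the controls. These groups did not overlap, and the difference was 0.49 ± 0.21 (SE; limma adjusted p = 0.998), with 0.16 for its other tested probe. Osbpl5 had a difference of 0.53 ± 0.32, with 0.26 without control replicate 6, 0.87 without control replicate 4 and 0.22 without background correction. Jade1 had -0.27 ± 0.24, with -0.10 without knockout replicate 2. H13, the host gene of the retrogene Mcts2, had -0.54, -0.36, 0.17 and 0.22 for its 4 tested probes, and the -0.54 was -0.24 without knockout replicate 2.

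Of 18 relatives and host genes that are not on the imprinted list, 10 were tested, by 19 probes, 8 higher and 11 lower, with a median difference of -0.07 and 0 past the threshold. Nap1l1, a relative of Nap1l4 and Nap1l5, had -0.79 ± 0.29 (SE; limma adjusted p = 0.998) for one probe and -0.20 for the other. Grb7, a relative of Grb10, had a difference of 0.84 ± 0.44, with 0.52 without knockout replicate 3, 1.29 without knockout replicate 2 and 0.33 without background correction. Frat1, a relative of Peg12, had 0.47 ± 0.32, with 0.13 without knockout replicate 3, and Copg1 had -0.37 ± 0.23, with -0.56 without knockout replicate 2. Other tested probes of Copg1 ran from -0.27 to -0.04, and the other Frat1 probe was at -0.07.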

How the data were processed

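Probe signals of 6 arrays were used, 3 per genotype. The authors deposited them as non-normalized intensity values on a linear scale, per the file headers, with a detection p-value beside each. BeadStudio 3.1.3 is named in the submitters' processing notes, with no settings. The authors also deposited processed intensity values with 34.3% to 34.4% of values below 0, which served as an alternative after a floor at 0 and an offset of 16.

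Signals were corrected and normalized with neqc in limma 3.58.1 (R 4.3.3), with an offset of 16. Knockout and control were compared with lmFit and eBayes without covariates, with 4 residual and 4.51 prior degrees of freedom, and Benjamini-Hochberg adjusted p-values over 14651 probes were read at 0.05. The fit was checked on simulated data. The number of arrays limits the precision. Probe names came from an array annotation table, updated by gene number against GRCm38.p6. Of the probes 34885 had 1 gene symbol, 18 several and 10378 none, and none was named from a probe with several. Probe sequences were not used, so probes of related genes are not shown to be specific. Members, lists and tests were chosen with earlier results of these data known. The rule named every imprinted gene with a tested probe, and in the lists of imprint factors, further imprinted genes and relatives the up to 4 with the smallest p. Zfp445, Cdkn1b and the marker genes were named outside that rule, after their values were seen. Alternatives changed background correction, values, offset, filter, prior, array weights, header numbers as a block and the arrays used.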

Additional observations from a re-analysis of the deposited data

How the results depend on the processing

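No imprinted probe passed the threshold under any of 15 alternatives. The signs of the small differences were less stable, and 12 of the 19 imprinted probes changed sign under at least 1 alternative, for 31 of 282 values, while 7 probes kept theirs. The cause was not tested. With array weights the log2 difference was 0.11 for Blcap, -0.015 and -0.24 for the Commd1 probes ILMN_1215639 and ILMN_1231658, -0.12 and -0.14 for the Gnas probes ILMN_2632206 and ILMN_1223437, 0.26 for the Igf2r probe ILMN_2931096, 0.093 for the Impact probe ILMN_2760977, 0.029 for Inpp5f and 0.29 for Kcnq1ot1, which was 0.037 without background correction. When 1 array was left out at a time, the difference ran from -0.18 to 0.049 for Blcap, from -0.10 to 0.62 and from -0.22 to 0.27 for the Commd1 probes ILMN_1215639 and ILMN_1231658, from -0.020 to 0.37 for Copg2, from -0.079 to 0.55 and from -0.10 to 0.57 for the Gnas probes ILMN_2632206 and ILMN_1223437, from -0.31 to 0.18 and from -0.15 to 0.26 for the Igf2r probes ILMN_2931096 and ILMN_2931095, from -0.28 to 0.094 for the Impact probe ILMN_2760977, from -0.21 to 0.22 for Inpp5f, from -0.64 to 0.56 for Kcnq1ot1 and from -0.18 to 0.30 for Ube3a. With 1 array left out, Gnas ILMN_1252926 ran from -1.15 to -0.21 and Impact ILMN_2517290 from -0.62 to -0.05, keeping their sign. Ddc ran from 0.48 to 0.95, and was 0.29 without background correction and 1.10 with an offset of 1. Over all probes 4 passed, against 2 without background correction, 1 with no filter on dim probes (45281 tested), 2 with pairs of neighbouring header numbers as a block, an alternative chosen after seeing the data, and 0 to 1 when an array was left out. Trim28 passed with a prior that follows intensity and is robust to outliers (-1.72, limma adjusted p = 0.0308). No paired analysis was possible because the groups share no replicate numbers in the labels, and whether neighbouring header numbers pair the animals is not stated. The 27 of 40 genes without a tested probe, 23 of them detected on 0 arrays, have no tested difference here.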
